A study of Mus musculus with 8 samples.

Results

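Genes on mouse chromosome 8 were ordered by position, to describe where along the chromosome the arrays labelled Trib1 hi read lower than those labelled Trib1 null. Each gene was represented by 1 probe set, the brightest one that carries a single symbol, and was placed by its Entrez identifier in the RefSeq table of the assembly GRCm38.p6. Of 17097 genes with a probe set, 878 lay on chromosome 8, and the 218 with a mean signal above 1000 over the 8 arrays are described. The members were selected on position and mean signal, and the edges on the difference between the groups. The mean is over both groups, so a gene can pass the limit through 1 group alone. The chromosome was proposed because earlier results of these arrays showed it lowered, so its levels and counts stand as a description and no test is made over the genes as a set. At the signal limit, Cul4a (mean signal 1006, log2 difference 0.03) and Usb1 (1030.2, -0.35) were just inside, and Ankrd11 (999.6, 0.29) and Insr (998, -0.64) were just outside.

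The 8 Affymetrix arrays measured total RNA of mouse acute myeloid leukaemia (AML) cell lines. By their labels, the 4 arrays named Trib1 hi are of cells expressing Hoxa9 and Trib1, and the 4 named Trib1 null are of cells expressing Hoxa9. Cells of both groups were grown in IMDM with fetal bovine serum and the cytokine IL-3 and received no treatment, and the growth protocol places the origin of the AML cells in mice that lack Trib1 on both alleles. Trib1 is a pseudokinase that helps degrade the transcription factor C/EBP alpha, and Hoxa9 is a homeobox factor that drives myeloid leukaemia. The labels name neither a vector nor a clone. Whether a group's arrays stem from separate cultures is not stated in them, and a p-value then covers only variation between arrays, which may be technical.

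The arrays of the group labelled Trib1 hi did not read higher for Trib1 itself, which lies on chromosome 15. Its 4 signals under the label Trib1 hi were 7.13, 7.13, 122 and 5.92, and those under Trib1 null were 304, 223, 212 and 206, all below 500. Hoxa9, on chromosome 6 and given by the labels to both groups, read 14.3, 14.3, 391 and 10.0 against 969, 1075, 1031 and 1020.1. Both genes go against the label Trib1 hi, and where the probes lie relative to the deleted or introduced sequences is not stated, so groups are named by their labels throughout. Of 12 myeloid markers 8 read above 500 on all arrays, and 5 of 5 T and B cell markers and 3 of 3 erythroid markers read below 500 on all. Of 4 fibroblast and endothelial markers 3 read below 500 on all arrays, and Pecam1, which leukocytes also express, averaged 1610.2 and 2231. Several of the myeloid markers had unlike means in the groups: Mpo averaged 5201 against 2.92, Elane 4452 against 802, S100a8 4684 against 28450.2 and Itgam 1660.0 against 5122, and their part in the results on chromosome 8 was not tested.

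The array Trib1 hi 3 stands apart, since its bright signals are lower than on the other 3 arrays of its group: over genes above 1000 on the other chromosomes its median difference from the Trib1 null mean was -0.18, against 0.13, 0.11 and 0.09. Dim signals were higher there, as the values of Trib1 and Hoxa9 above show. In bulk RNA, fewer cells of a type and less RNA per cell cannot be told apart.

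Chromosome 8 of the mouse has its centromere at the low-numbered end, so positions count from the centromere outwards. Neighbouring genes can share enhancers and chromatin domains, and a segment that is lost or gained in a leukaemia cell carries all of its genes with it. The arrays measured RNA, and the number of DNA copies was not analysed here. The chromosome carries genes of use to a myeloid cell, among them Lyl1, a blood transcription factor, Cbfb, the partner of the RUNX factors, Plcg2, a phospholipase of immune receptors, and Cyba, a subunit of the oxidase that makes superoxide.

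The lowered part has a gene at each end whose promoter is given here, to show what kind of start region the first and the last gene have. The 250 bases before the start of each are from the RefSeq table on GRCm38.p6, written 5′ to 3′ along the gene, and capitals mark 3 motifs searched on both strands. One is the GC box, spelled GGGCGG. Another is the box named after its own letters, CCAAT. The last is the TATA box, which was searched for as TATAAA and is absent from both. Msmo1, the first gene inside, has chr8:64733579-64733828 on the minus strand, and Nudt21, the last gene inside, has chr8:94037040-94037289 on the minus strand.
Msmo1: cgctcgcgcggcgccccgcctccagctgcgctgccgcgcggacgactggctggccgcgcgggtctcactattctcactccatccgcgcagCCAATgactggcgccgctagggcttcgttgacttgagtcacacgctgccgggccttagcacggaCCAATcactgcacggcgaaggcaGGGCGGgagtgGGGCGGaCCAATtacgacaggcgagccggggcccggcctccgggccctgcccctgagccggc
Nudt21: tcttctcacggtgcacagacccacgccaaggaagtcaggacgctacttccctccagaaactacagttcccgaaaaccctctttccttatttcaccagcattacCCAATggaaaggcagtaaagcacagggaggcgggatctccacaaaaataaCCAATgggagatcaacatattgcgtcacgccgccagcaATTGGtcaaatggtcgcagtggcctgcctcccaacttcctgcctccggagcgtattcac

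The Msmo1 promoter held 2 GC boxes and 3 CCAAT boxes, and that of Nudt21 held 3 CCAAT boxes and 0 GC boxes. Of the 218 genes 164 had an entry. A GC box was found in 58.8% of the 68 promoters inside the lowered part, in 61.5% of the 96 outside it on the chromosome, and in 42.7% of 17492 promoters of protein-coding genes. A CCAAT box was found in 45.6%, 30.2% and 36.5%, and a TATA box in 8.82%, 6.25% and 12.4%. The median share of G and C bases was 59.6% inside, 61.2% outside and 55.2% over all, so both sets of bright chromosome 8 genes had promoters richer in G and C than the median of all genes. The set of all protein-coding genes was not limited to bright genes, and bright genes of other chromosomes were not counted. The part of signal in these differences was therefore not tested. A match to these letters is a description only.

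Along the chromosome, the genes between 64.7 and 94.0 Mb read lower on the arrays labelled Trib1 hi, and those on both sides did not differ on balance. Differences are on the log2 scale of the signal plus 2.71, and a gene is called lower or higher when its adjusted p in limma, a linear model fitted over all 12250 tested genes, is under 0.05. Of the 218 genes, 92 were lower (42.2%) and 31 higher (14.2%), beside 27.4% lower and 27.8% higher among all 4065 tested genes above a signal of 1000. Over all tested genes 19.7% were lower and 11.1% higher. The median difference of the 218 was -0.18, against 0.04 over 3842 genes of like signal on the other chromosomes. Without the array Trib1 hi 3, 97 were lower and 61 higher. In that fit 29.5% of genes above 1000 on the other chromosomes were lower, against 26.6% with all arrays. Their share higher was not counted in that fit, so the 61 has no background beside it. Their median difference was 0.11 in it, against 0.04 with all arrays.

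**Figure D1:**
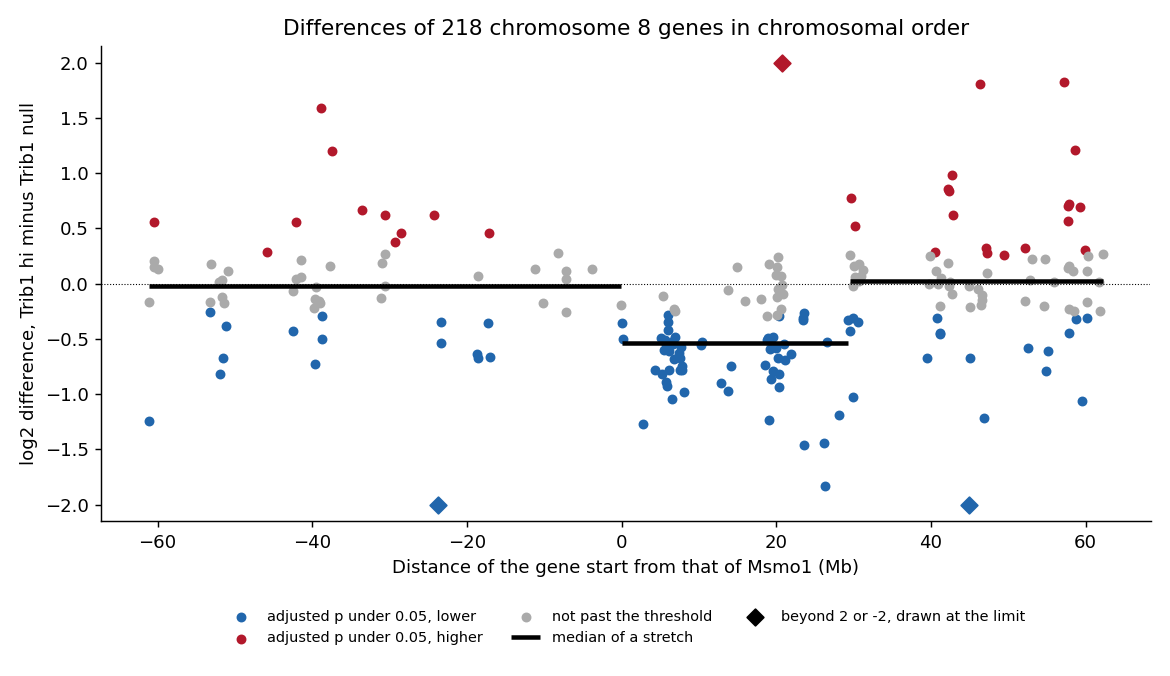
Each point is 1 of 218 chromosome 8 genes, at the distance of its start from that of Msmo1 in Mb (x axis) and at its log2 difference, Trib1 hi minus Trib1 null (y axis); blue and red mark genes past the limma threshold, and black lines are the medians of the 3 stretches. The middle line lies at -0.54 and the outer lines at -0.02 and 0.02.

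To place the edges, the ordered genes were divided into 3 stretches of at least 10 genes so that the summed distance of the differences from the stretch medians was smallest. The first stretch ran from Pet100 (3.6 Mb) to Cpe (64.6 Mb) with 61 genes and a median of -0.02. The middle stretch ran from Msmo1 (start 64718123) to Nudt21 (start 94019403), spanned 29.3 Mb and held 78 genes with a median of -0.54. Its middle 50% of genes lay between -0.78 and -0.28, and the median corresponds to a ratio of 0.687. The last stretch ran from Mt1 (94.2 Mb) to Tomm20 (126.9 Mb) with 79 genes and a median of 0.02. Because the division was made on these same differences, no test of one stretch against another is given.

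Within the middle stretch 58 of 78 genes were called lower (74.4%), 1 was called higher and 19 were not called, and 71 lay below 0 (91.0%). Some of those called lower passed the signal limit through Trib1 null alone, and they are named further below. In 58 genes every array labelled Trib1 hi read below every array labelled Trib1 null, beside 29.5% of all tested genes above 1000, and in 2, Gpt2 and Orc6, every one read above, beside 24.7%. The first stretch had 16 lower and 11 higher, and the last stretch had 18 lower and 19 higher. Together the 140 genes outside the middle had 24.3% lower and 21.4% higher, against 26.6% and 28.5% on the other chromosomes. Without chromosome 17 the other chromosomes had 23.7% lower and 29.9% higher. The share lower was thus near that of the other chromosomes, and the share higher was below it. When the log2 values of all probe sets of a gene were averaged, 37 genes of the middle were called lower. The share lower on the other chromosomes then fell as well, from 26.6% to 18.7%.

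**Figure D2:**
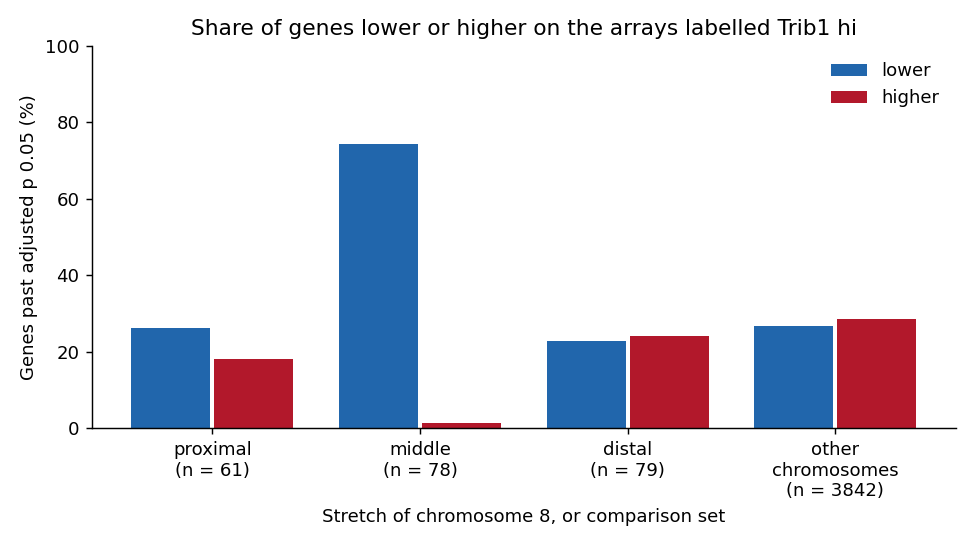
Bars give the share of genes (%) past the limma threshold in each direction, lower in blue and higher in red, for the 3 stretches of chromosome 8 and for genes of like signal on the other chromosomes. The middle stretch has 74.4% lower and 1.28% higher, and the other bars lie between 18.0% and 28.5%.

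The lowering was seen on each array labelled Trib1 hi. The stretch was placed on the mean difference of these same arrays, so low values there follow in part from that choice and are a description. For each array the median over the 78 genes of its difference from the mean of the Trib1 null arrays was taken, with a Trib1 null array set against the other 3. The values were -0.50, -0.47, -0.67 and -0.48 for Trib1 hi and -0.09, 0.09, 0.02 and -0.01 for Trib1 null. The groups did not overlap, and Trib1 hi 3 was the lowest. That array was also low outside the middle, at -0.18 against 0.06, 0.07 and 0.06. The middle minus the rest of the chromosome within an array was -0.56, -0.54, -0.49 and -0.54, and on the Trib1 null arrays -0.02, 0.03, 0.01 and -0.02, so on this measure Trib1 hi 3 was not the lowest of its group.

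In fixed windows of 10 Mb the lowest medians lay from 60 to 80 Mb at the signal limit of 1000. The window from 60 to 70 Mb had a median of -0.50 over 8 genes, with 6 lower and 0 higher, but it moved to -0.43 at a limit of 500 and to -0.27 at a limit of 2000. From 70 to 80 Mb, 32 genes had a median of -0.59, and 27 were lower (84.4%) and 0 higher, and at limits of 500 and 2000 the median was -0.63 and -0.53. From 80 to 90 Mb, 35 genes had a median of -0.31, with 20 lower and 1 higher (Gpt2). The window from 90 to 100 Mb holds the distal edge, and its 19 genes had a median of -0.02 with 9 lower and 2 higher (Herpud1 and Polr2c).

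The windows further out lay near 0 with exceptions at 30 to 50 Mb on the centromere side. From 40 to 50 Mb, 10 genes had a median of -0.45 with 7 lower and 2 higher (Cnot7 and Rwdd4a), and from 30 to 40 Mb, 8 genes had a median of 0.32 with 0 lower and 4 higher (Mak16, Leprotl1, Eri1 and Lonrf1). The median from 40 to 50 Mb was -0.59 at a signal limit of 500, -0.14 at a limit of 2000 and -1.64 over 4 other probe sets of its genes, below the -0.87 of other probe sets from 70 to 80 Mb. Between the lowered window at 40 to 50 Mb and the middle stretch, the 6 genes from 50 to 60 Mb had a median of 0.07 with 0 called in either direction. The first 3 windows had medians of 0.14, -0.15 and -0.07 over 6, 12 and 17 genes. The windows from 100 Mb to the end had medians of 0.00, -0.05 and 0.11 over 23, 19 and 23 genes.

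**Figure D3:**
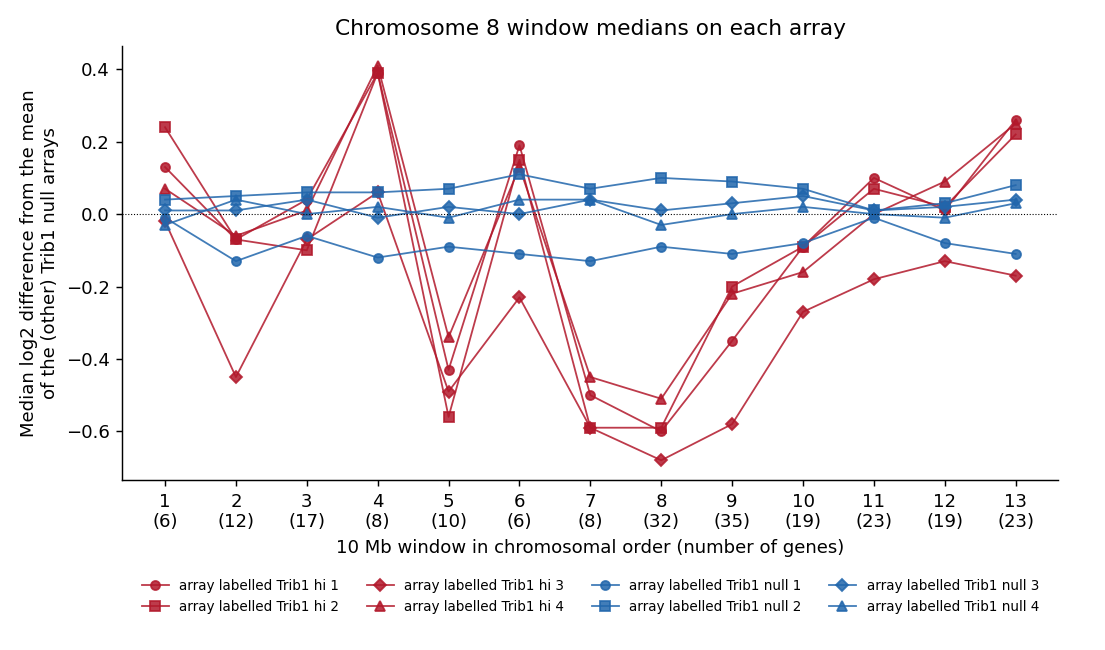
Lines give, for each array, the median log2 difference from the mean of the Trib1 null arrays (the other 3 for a Trib1 null array) in 10 Mb windows 1 to 13 counted from the centromere end, with the number of genes in brackets. In windows 5 and 7 to 10 every array labelled Trib1 hi (red) lies below every array labelled Trib1 null (blue).

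In 5 of the 13 windows every array labelled Trib1 hi lay below every array labelled Trib1 null, those starting at 40, 60, 70, 80 and 90 Mb. From 30 to 40 Mb, in the other direction, the lowest Trib1 hi and the highest Trib1 null array were both at 0.06. Windows of other chromosomes were not counted in this way, so the 5 have no background beside them. From 70 to 80 Mb the arrays labelled Trib1 hi had window medians of -0.60, -0.59, -0.68 and -0.51, and those labelled Trib1 null -0.09, 0.10, 0.01 and -0.03. From 40 to 50 Mb they had -0.43, -0.56, -0.49 and -0.34, against -0.09, 0.07, 0.02 and -0.01. From 90 to 100 Mb the gap was narrow, with -0.09 as the highest array labelled Trib1 hi and -0.08 as the lowest labelled Trib1 null. Windows of 5 Mb placed the change more finely: the median was -0.27 (4 genes) from 60 to 65 Mb, -0.80 (4 genes) from 65 to 70 Mb, -0.32 (14 genes) from 90 to 95 Mb and 0.07 (5 genes) from 95 to 100 Mb.

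The distal edge was placed within a narrow range, whereas the proximal edge depended on the array. With each array labelled Trib1 hi set alone against the Trib1 null mean, the last gene inside was Nudt21 (94.0 Mb), Lpcat2 (92.9 Mb), Rspry1 (94.6 Mb) and Rspry1. The first gene inside was Msmo1 (64.7 Mb), Tmem192 (64.9 Mb), Mtus1 (41.0 Mb) and Msmo1. The SD over the 4 arrays was 0.802 Mb for the distal edge and 11.9 Mb for the proximal edge, and the latter comes from Trib1 hi 3, which joined the lowered window at 40 to 50 Mb to the middle. Squared in place of absolute distances also gave Mtus1 as the first gene, and a signal limit of 500 gave Nat2 (67.5 Mb). Signal limits of 500 and 2000 and quantile normalization each gave Rspry1 (94.6 Mb) as the last gene. Leaving out any 1 array gave Msmo1 and Nudt21 each time.

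At the proximal edge the change from gene to gene was small. Signals are given for arrays 1 to 4, Trib1 hi before Trib1 null. Cpe, carboxypeptidase E, read 4578, 4858, 3369 and 4561 against 4512, 5081, 5010.3 and 4972, with overlap, and the difference was -0.19 ± 0.10 (SE, n = 4 arrays per group, limma adjusted p = 0.205). After quantile normalization Cpe was called lower (-0.29, adjusted p = 5.30e-06), and the division then ran from Cpe to Rspry1. Msmo1, a monooxygenase of cholesterol synthesis, read 6898, 7051, 5242 and 6599.9 against 7433, 8882, 8236 and 8386. Its arrays did not overlap, and it was 1.28-fold lower (limma adjusted p = 0.00979). That call ended with signals below 500 set to 500 (adjusted p = 0.0540), and the mean of the gene's probe sets differed by 0.14 (adjusted p = 0.840), in the other direction.

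Past Msmo1 the differences grew. Tmem192, a protein of the lysosomal membrane, read 1312, 1266, 1325 and 1263 against 1800.2, 1882, 1776 and 1877, 1.42-fold lower (limma adjusted p = 1.48e-04). Nat2, an arylamine acetyltransferase, read 582, 520.3, 861 and 676 against 1552, 1448, 1645 and 1632, 2.42-fold lower (limma adjusted p = 8.72e-09). Both genes had arrays without overlap. Before the edge, Hpf1, a cofactor of the enzyme PARP1, differed by 0.13 (limma adjusted p = 0.405, and 0.0195 without Trib1 hi 3). Galnt7, an enzyme of mucin-type glycosylation, differed by -0.26 (0.0545). The Galnt7 call was gained without Trib1 hi 2, Trib1 hi 4 or Trib1 null 1 (adjusted p = 0.0451, 0.0435 and 0.0297), after quantile normalization (-0.26, 0.00853) and with the mean of its probe sets (-0.62, 0.0125).

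**Figure D4:**
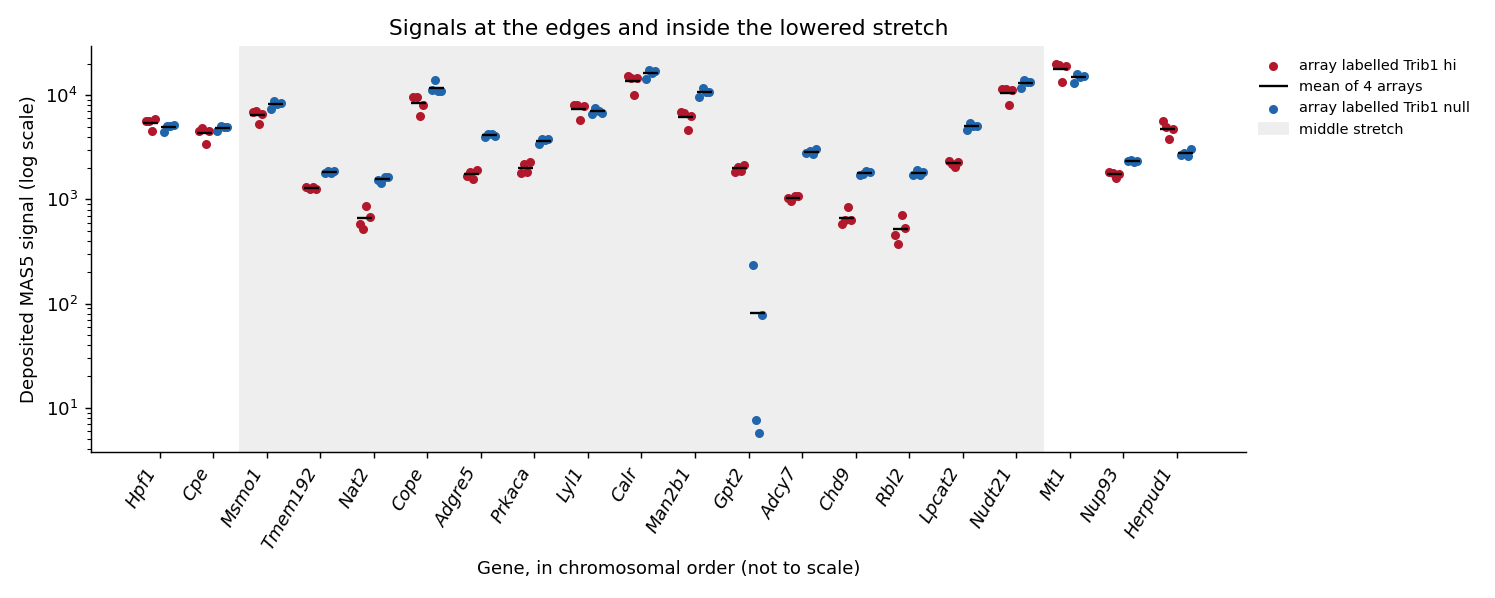
Points are the deposited signals (log scale) of 20 genes in chromosomal order on the 4 arrays labelled Trib1 hi (red) and the 4 labelled Trib1 null (blue), with black lines at the group means and grey shading over the middle stretch. Tmem192, Nat2, Adcy7, Chd9, Rbl2 and Lpcat2 lie lower in red without overlap, Lyl1 and Calr overlap inside the shading, and Gpt2 is higher in red.

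At the distal edge a strong difference ended within a short distance. Lpcat2, an enzyme that makes phosphatidylcholine and platelet-activating factor, read 2335, 2201, 2044 and 2287 against 4687, 5373, 5080.3 and 5095, 2.28-fold lower (limma adjusted p = 1.79e-12, and 0.184 when its probe sets were averaged). Nudt21, a subunit of the complex that sets where messenger RNAs are cleaved, read 11552, 11531, 8151 and 11155 against 11755, 14081, 13516 and 13379. It was 1.25-fold lower without overlap, by -0.33 ± 0.13 (SE), but at an adjusted p of 0.0495 in limma the call is marginal. It was lost when Trib1 hi 2, Trib1 hi 4, Trib1 null 2, Trib1 null 3 or Trib1 null 4 was left out (0.0523 to 0.144), with signals below 500 set to 500 (0.145) and with the replicate number as a block (0.0878). It held after quantile normalization (-0.38, 4.30e-10) and with the mean of its probe sets, where the difference was -0.93 (0.00368).

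Of the first 5 genes beyond Nudt21, 3 were lower (Nup93, Psme3ip1 and Rspry1), 1 was higher (Herpud1) and 1 was not called (Mt1). Mt1, a metallothionein that binds zinc and copper, read 19793, 19661, 13458 and 19170.2 against 13252, 16102, 15122 and 15276, a difference of 0.26 (limma adjusted p = 0.208, and 0.00180 without Trib1 hi 3). Nup93, a protein of the nuclear pore, was 1.34-fold lower (adjusted p = 5.12e-04), and Herpud1, which responds to stress in the endoplasmic reticulum, was 1.71-fold higher (2.46e-07). Psme3ip1 was 1.24-fold lower (0.0107). Rspry1, chosen after its values were seen because single arrays placed the edge there, read 2309.9, 2327, 2038 and 1934 against 4063, 4589, 4372 and 4537, 2.04-fold lower (9.84e-11). The next genes, Arl2bp, Ciapin1 and Coq9, also chosen after their values were seen, differed by -0.02, 0.16 and 0.06 and were not called.

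The middle stretch was not lowered evenly. The 35 genes with starts from 69 to 80 Mb, Atp6v1b2 to Abce1, had a median of -0.60 with 30 lower and 0 higher. From 80 to 86 Mb, 30 genes had a median of -0.29 with 15 lower and 1 higher. From 86 to 95 Mb, 10 of 10 genes, Lonp2 to Nudt21, were lower, with a median of -0.58. These limits were drawn after the values were seen.

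A division into 5 stretches, added after the 3-stretch result, cut out a short run of 15 genes from Lyl1 to Dnaja2 (84.7 to 85.5 Mb). Its median was -0.09, with 4 lower (Prdx2, Get3, Trir and Man2b1) and 1 higher (Gpt2). The 51 genes before it, Msmo1 to Ier2, had a median of -0.57 with 42 lower and 0 higher, and the 12 genes after it, Itfg1 to Nudt21, had -0.60 with 12 lower. The median of the run per array was -0.01, -0.03, -0.27 and -0.01 for Trib1 hi, and -0.12, 0.09, 0.04 and 0.00 for Trib1 null. With the exception of Trib1 hi 3, the arrays labelled Trib1 hi lay inside the range of the other group. The 3 stretches took away 14.6% of the summed distance from a single median, and 5 stretches 17.7%. Further cuts lower this sum by construction, so the rise is a description only.

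Genes of the short run are named by rule where bright. Lyl1 read 8020.0, 8137, 5801 and 7828 against 6549, 7599.8, 7043 and 6769.7, a difference of 0.08 ± 0.11 (SE, limma adjusted p = 0.682, and 0.0192 without Trib1 hi 3). Calr, the calcium-binding chaperone calreticulin, read 15213, 14637, 10153 and 14645 against 14438, 17657, 16442 and 17049, a difference of -0.28 (0.150). Dnaja2, a co-chaperone of Hsp70, differed by -0.09 (0.713), Syce2, a protein of the synaptonemal complex, by 0.24 (0.0602, and 4.63e-04 without Trib1 hi 3), and Vps35, a core subunit of the retromer sorting complex, by -0.23 (0.164). The groups overlapped in all of these. After quantile normalization Calr (-0.33), Dnaja2 (-0.15) and Vps35 (-0.30) were called lower and Syce2 (0.14) was called higher. With the mean of its probe sets Vps35 differed by -1.53 and was called lower (0.0363), and Dnaja2 differed by -0.53 (0.0512).

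Exceptions in both directions stood inside the same run. Man2b1, the lysosomal alpha-mannosidase, read 6925, 6783, 4604 and 6288 against 9643, 11666, 10833 and 10759, 1.76-fold lower without overlap (limma adjusted p = 1.26e-06). Gpt2, the mitochondrial alanine aminotransferase, read 1846, 2057, 1892 and 2140.5 against 235, 7.62, 5.68 and 77.8. It was the single gene of the middle stretch called higher, at least 3.96-fold on signals limited below at 500 (limma adjusted p = 1.08e-08). All 4 arrays labelled Trib1 null lay under that limit.

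The lists by role are small, and each count inside is to be read against the 74.4% of all 78 genes there that were lower. Counts outside are to be read against the 24.3% lower and 21.4% higher of all 140 genes there. Of 20 listed signalling genes 11 were too dim to enter. Of 3 inside the middle 3 were lower, with a median of -1.23, and of 4 outside 0 were called, with a median of 0.03. Adcy7, an adenylyl cyclase that makes cyclic AMP, read 1031, 956, 1077 and 1068 against 2762, 2892, 2726 and 3022, 2.76-fold lower (limma adjusted p = 1.03e-13). Prkaca, the catalytic subunit of the kinase that cyclic AMP activates, read 1794, 2207, 1820.4 and 2281 against 3379, 3772, 3682 and 3774, 1.81-fold lower (1.39e-08). Adgre5, the adhesion receptor CD97 of leukocytes, read 1684, 1833, 1588 and 1906 against 3939.7, 4242, 4256 and 4020.4, 2.35-fold lower (1.31e-12). None of these overlapped. Outside, Plcg2 differed by 0.03 (0.888, and 0.0242 at 0.15 without Trib1 hi 3).

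Of 20 listed transcription and chromatin regulators 11 were too dim to enter. Inside the middle 4 of 5 were lower, near the 74.4% of the whole middle, with a median of -0.35, and of 4 outside 0 were lower and 2 higher, with a median of 0.07. Ier2, an immediate-early gene, read 5271, 5417, 4113 and 5359.6 against 7244, 7871, 7427 and 7348, 1.49-fold lower (limma adjusted p = 3.06e-05). The others lower were Jund, an AP-1 subunit, Sin3b, a corepressor scaffold, and Brd7, a bromodomain protein, and the one not called was Lyl1. Outside, Ash2l, a subunit of histone H3 lysine methyltransferase complexes, read 7802, 7849.6, 5602 and 7288 against 2281, 2331, 2415 and 2339.5, 3.02-fold higher (2.08e-14). Cbfb was 1.22-fold higher at an adjusted p of 0.0409 with overlap, and that call was lost on leaving out any array other than Trib1 hi 3 (0.0503 to 0.156).

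Cell cycle and replication genes showed both called and uncalled members inside. Of 6 inside, 3 were lower and 0 higher, with a median of -0.34, and of 7 outside, 0 were lower and 2 higher (Cdt1 and Cenpn), with a median of 0.03. Rbl2, the pocket protein p130 that holds E2F targets off in resting cells, read 454, 373, 710.4 and 537 against 1726, 1919.7, 1721 and 1831, at least 3.23-fold lower (limma adjusted p = 1.90e-11). Asf1b, a histone chaperone of replication, read 4091, 4646, 3205 and 4177 against 5467, 6618, 6140.3 and 5959, 1.51-fold lower (2.83e-05). Both had arrays without overlap, and Mcm5, a subunit of the replicative helicase, was the other lower member. Smarca5, the ATPase of ISWI chromatin remodellers, read 9406, 9776, 6774 and 8407 against 9146, 9884, 9289 and 9636, a difference of -0.16 (0.381). It was called lower after quantile normalization (1.26e-04) and with the mean of its probe sets (0.0466). Outside, Hmgb2, an abundant chromatin protein of dividing cells, differed by 0.04 (0.900).

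Of vesicle sorting and proteasome genes inside the middle 4 of 5 were lower, near the 74.4% of the whole middle, with a median of -0.63, against 2 lower (Psmb10 and Atp6v0d1) and 1 higher (Psmd7) of 5 outside with a median of -0.25. The lower ones inside were Cope, Ap1m1, Rab8a and Atp6v1b2. Cope, a subunit of the coatomer of Golgi vesicles, read 9629, 9716, 6297 and 7996 against 11255, 14051, 10929 and 11078, 1.42-fold lower (limma adjusted p = 0.00246). Its call was lost with signals below 500 set to 500 (0.0715). Outside, Atp6v0d1, a subunit of the vacuolar proton pump, was 1.24-fold lower (0.0266), and lost the call without Trib1 null 3 (0.0651) or Trib1 null 4 (0.0606). The Atp6v0d1 call was also lost with signals below 500 set to 500 (0.128) and with the mean of its probe sets (0.0976).

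Of redox and protein folding genes inside the middle, 3 of 6 were lower and 0 higher, with a median of -0.39, against 1 lower (Egln1) and 1 higher (Herpud1) of 5 outside, with a median of 0.14. The lower ones were Prdx2, a peroxiredoxin, Dnajb1, a co-chaperone of Hsp70, and Fkbp8, a mitochondrial prolyl isomerase. Outside, Cyba differed by 0.14 (limma adjusted p = 0.561, and 0.0141 without Trib1 hi 3). Of mitochondrial and metabolic genes, 3 of 4 inside were lower (Ndufb7, Msmo1 and Man2b1), again near 74.4%, with a median of -0.43, and of 11 outside 2 were lower (Asah1 and Lamp1) and 2 higher (Vdac3 and Slc7a5), with a median of 0.07. Ndufb7, a subunit of respiratory complex I, read 8363, 9354, 6300.0 and 8374 against 10587, 11788, 11747 and 11473, 1.42-fold lower (9.91e-04). Outside, Tomm20, an import receptor of the mitochondrial outer membrane, differed by 0.27 (0.242, and 0.00111 without Trib1 hi 3).

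Most listed ribosome, translation and RNA genes outside the middle were called higher, beside 21.4% of all 140 genes there. The list was chosen with earlier results of these data known. Inside, 2 of 5 were lower and 0 higher, with a median of 0.15, and outside 1 of 10, Edc4, was lower and 7 were higher, with a median of 0.68. Inside, the lower ones were Lsm4, of the complexes that bind U-rich RNA, and Nudt21, whereas Ddx39a, a helicase of messenger RNA export, differed by 0.18 (limma adjusted p = 0.236, and 0.00140 without Trib1 hi 3). Outside, the higher ones included Aars, the alanyl-tRNA synthetase, which read 5863, 5786, 4189 and 5353 against 1400.5, 1564, 1595 and 1439, 3.51-fold higher (1.18e-15). Eif4ebp1, a repressor of cap-dependent translation, was 2.29-fold higher (1.28e-10). Rpl13, a ribosomal protein, differed by 0.11 (0.773) and by -0.57 with the mean of its probe sets (4.13e-04), and was called higher without Trib1 hi 3 (0.0403).

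The 3 deepest decreases inside the middle, Rbl2, Adcy7 and Chd9, lay in its distal part, and the next, Nat2, near its proximal edge. Chd9, a chromodomain helicase, read 575, 630.0, 838 and 638 against 1727, 1762, 1877 and 1851, 2.72-fold lower (limma adjusted p = 6.91e-11). That call was lost with the mean of its probe sets (0.652). Fto, an RNA demethylase, read 1035, 927, 1093 and 1073 against 1497, 1466, 1444 and 1537, 1.44-fold lower (3.39e-04), and it lost the call in the same way (0.935). Adcy7, Chd9, Rbl2 and Lpcat2 lie within 88.27 to 92.86 Mb.

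Outside the middle, single genes differed strongly in both directions. Mtus1, a scaffold that binds microtubules, read 92.1, 158, 649 and 318 against 2405, 2576, 2418 and 2676, at least 4.71-fold lower (limma adjusted p = 6.49e-11), at 40.99 Mb. Haptoglobin (Hp), which binds free haemoglobin, read 272, 171, 578 and 424 against 2152, 2186, 2036 and 2038, at least 4.05-fold lower (8.11e-12), at 109.58 Mb. Pet100, an assembly factor of cytochrome c oxidase, was 2.37-fold lower (5.78e-12), a call lost with the mean of its probe sets (0.965). Slc7a5, a transporter of large neutral amino acids, read 9879, 9598, 6740.1 and 9267 against 2392, 2549, 2535 and 2489, 3.52-fold higher (2.17e-15). All 4 had arrays without overlap.

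The size of the lowering moved with signal, described in ranges chosen after the values were seen. Inside the middle the median difference was -0.71 for 24 genes of signal 1000 to 2000, -0.55 for 33 genes of 2000 to 5000 and -0.29 for 21 genes above 5000. Outside it on the chromosome the medians were -0.12 (48 genes), 0.10 (63) and 0.07 (29), and on the other chromosomes -0.07, 0.07 and 0.08. Inside was below outside in each range, though the 80 to 86 Mb part, less lowered, also had the brighter genes, with a median signal of 3818 against 2889 from 69 to 80 Mb. The part of signal in that difference was not tested. The range of 1000 to 2000 includes genes that passed the limit through 1 group alone. Inside the middle Rbl2, Chd9, Nat2, Ccdc124, Myo9b, Ap1m1, Hmgxb4, Elmod2 and Get3 passed through Trib1 null, and Gpt2 through Trib1 hi. Those outside include Mtus1 and Hp through Trib1 null.

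Genes and probe sets that the selection left out also had lower medians inside the middle than outside. Chromosome 8 genes of signal 200 to 1000 had a median of -1.78 inside the middle (52 genes, 40 lower and 0 higher) and -0.66 outside (89 genes, 42 lower and 5 higher). On the other chromosomes 2423 genes of that range had -0.71 with 1129 lower and 215 higher, so a negative median is the background there. Other probe sets of the same bright genes had a median of -0.80 inside (26 probe sets, 23 below 0) and -0.08 outside (51, 28 below 0). They share arrays with the values that placed the edges.

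Other chromosomes are set beside chromosome 8 as a description. With chromosome 17 left aside, the medians of the other chromosomes lay between -0.05 and 0.10, and that of chromosome 17 was -0.49, with 165 of 237 genes lower and 17 higher. Chromosome 8, at -0.18, lay between them. Of 176 windows of 10 Mb with at least 10 genes in the genome, the one from 70 to 80 Mb on chromosome 8 had the second lowest median, -0.59, after -0.62 for 30 to 40 Mb on chromosome 17. The next, from 70 to 80 Mb on chromosome 2, had -0.58 over 19 genes, so a window of this depth was not particular to chromosome 8.

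**Figure D5:**
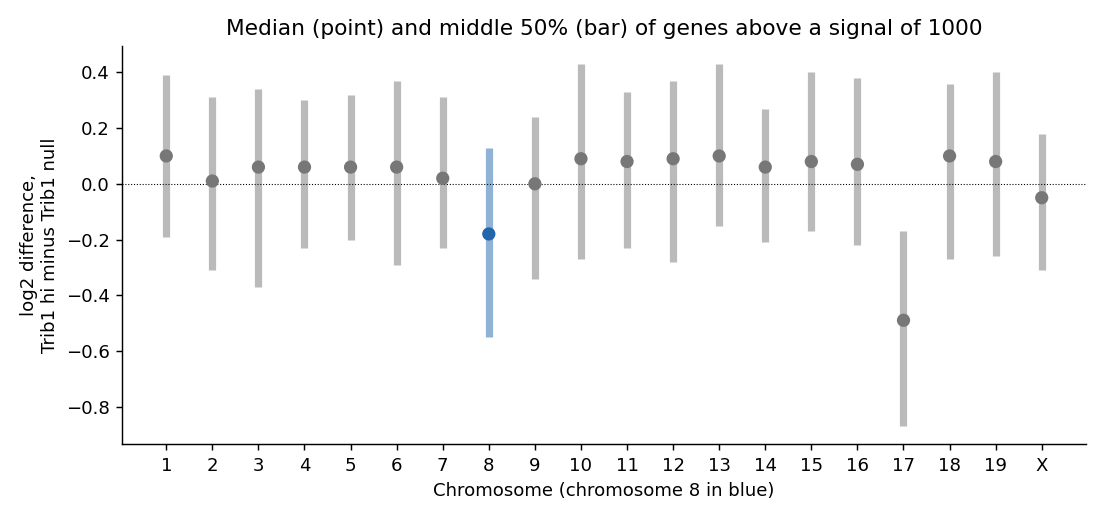
Points are the median log2 differences, Trib1 hi minus Trib1 null, of genes above a signal of 1000 on each chromosome, and bars are the middle 50% of genes. Chromosome 8 (blue) lies at -0.18 with a bar from -0.55 to 0.13, chromosome 17 at -0.49, and the others between -0.05 and 0.10.

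The same 3-stretch division of each other chromosome, added after the chromosome 8 result, took away less of the summed distance. Over the 18 chromosomes other than 8 and 17 it took away 1.49% to 6.22%, against 14.6% for chromosome 8 and 2.97% for chromosome 17. The highest of these, chromosome 2, had a stretch of 26 genes with a median of -0.58, a difference of -0.63 from its surroundings. Chromosome 17 had a stretch of 13 genes at -0.91 against -0.47 around it. The middle stretch of chromosome 8, with 78 genes, differed by -0.55 from its surroundings.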

How the data were processed

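Gene expression was measured on 8 arrays in 2 groups of 4. The authors deposited 1 linear intensity per probe set and array, made with MAS5 per the submitters' processing notes, which summarises the probes of a set and scales each array; the sources used here give neither its parameters nor a genome build. Of 45141 probe sets, 28898 had exactly 1 symbol, giving 17097 genes, of which 16936 were placed on GRCm38.p6. Intensities were tested as log2(intensity + 2.71), the 25th percentile, for the 12250 genes with a mean over 3.01, the 40th percentile; all 218 members passed. limma 3.58.1 in R 4.3.3 (lmFit, eBayes with a trend) compared the groups, two-sided, with Benjamini-Hochberg adjustment over all tested genes at 0.05. SE is limma's standard error with 4 arrays per group, and folds were computed with signals below 500 set to 500, written "at least" where 1 or more arrays of one group lay below it. The limma fit and the division into 3 stretches were run on simulated data with independent noise and a planted shift. Windows, folds and the edges of single arrays were not simulated. The number of arrays limits the precision.

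The members, the lists and the rules were chosen with earlier results of these data known. Named genes are the 3 on each side of each edge, the 5 largest decreases and 3 largest increases inside, 3 of each outside, and the brightest of each of 7 role lists, 2 inside and 1 outside. Other genes given beside them were chosen after their values were seen. Lists counted were cell cycle, blood regulators, signalling, redox and folding, mitochondria and metabolism, ribosome and RNA, and vesicle sorting with the proteasome. Alternatives changed the normalization, floor, pseudocount, filter, probe set choice, trend, replicate block, arrays, signal limit, windows and division.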

Additional observations from a re-analysis of the deposited data

Results flagged for a closer look

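In each group of 4 arrays, the highest or lowest value was compared with the rest of its group. It lay far out in 24 of 118 groups examined. Chance gives about 1 in 20 for independent groups. These groups share the same 8 arrays and in part the same genes, so the count is a description and is not set against that rate. Of the 24, 20 were on the array Trib1 hi 3, which read below the other 3 arrays of its group each time.

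On Trib1 hi 3 these were the signals of Hpf1 (4494), Ier2 (4113), Lyl1 (5801), Calr (10153), Syce2 (3877), Dnaja2 (9358), Nudt21 (8151), Mt1 (13458), Cbfb (5847), Plcg2 (2758), Slc7a5 (6740.1), Cyba (13349), Rpl13 (26481) and Tomm20 (17739). They lie inside and outside the lowered stretch alike. The median differences of that array were also low for the proximal stretch (-0.16), for the middle stretch (-0.67) and for the windows from 10 to 20 Mb (-0.45), 30 to 40 Mb (0.06), 50 to 60 Mb (-0.23) and 120 to 130 Mb (-0.17). Without it the median of the middle stretch was -0.50, with the same edge genes and 58 genes called lower.

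On Trib1 null 1 the signals of Hpf1 (4396) and Vps35 (8912) and the median of the window from 60 to 70 Mb (-0.13) were low. On Trib1 null 2 the signal of Cope (14051) was high.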

How the results depend on the processing

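The median of the middle stretch stayed between -0.56 and -0.50 when any 1 array was left out, and the edge genes were Msmo1 and Nudt21 each time. Leaving out 1 array gave 82 to 97 chromosome 8 genes lower, 53 to 58 of the middle lower and 24 to 61 higher, the 61 without Trib1 hi 3. In those fits 23.5% to 29.5% of genes above 1000 on the other chromosomes were lower. A signal limit of 2000 left 146 genes with 57 lower, 38 of 54 in the middle. Quantile normalization gave 55 higher and 118 lower, and the mean of the probe sets of a gene gave 17 higher and 37 of the middle lower. The share lower among genes above 1000 on the other chromosomes moved in the same directions. It was 26.6% in the main fit, 39.1% with quantile normalization and 18.7% with the mean of the probe sets. The share higher there was counted in the main fit only, so the other counts of higher genes have no background. Squared distances moved the proximal edge to 41.0 Mb. The replicate numbers did not pair the arrays (correlations of same-numbered deviations -0.22, 0.21, -0.05 and 0.05), and with the replicate block 90 were lower, 30 higher and 57 of the middle lower.

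Outside the middle, some window medians changed sign: 0 to 10 Mb with a limit of 500 (-0.02), with genes of 200 to 1000 (-0.80) and with other probe sets (-0.15), 20 to 30 Mb with a limit of 2000 (0.16), and 30 to 40 Mb with genes of 200 to 1000 (-0.39) and other probe sets (-0.07). With the mean of the probe sets Msmo1 differed by 0.14 and Rpl13 by -0.57. The cause of these changes was not tested. The median difference of all tested genes was 0.04, and -0.32 without Trib1 hi 3.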
